A study of Danio rerio with 12 samples.

Results

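The members described here are 167 zebrafish genes with solute carrier symbols, nearly all of them transporters of the SLC and SLCO families. They were measured in hand-picked DsRed-positive brain cells, labelled as microglia, of 4 genotypes. The symbols of 2 members, SLC7A6OS and slc4a1ap, belong to genes that are not transporters, and both stay in all totals of 167. A gene ID was taken when its symbol began with slc or slco and a digit and when it had 10 or more counts in at least 3 of the 12 tubes. Of 35117 gene IDs in the table, 446 had such a symbol, 260 of these had a count and 172 passed the minimum. From these, 5 IDs were left out by name (SLC7A7, slc3a2a, SLC37A2, SLC35F6 and slco2b1), of which 4 passed the test of DMut against siblings. The counts of called members given below are therefore counts after most of the called solute carriers had been set aside. Nothing is read from their small size or from the substrates of the members called. All 167 members were among the 9519 genes tested. They carried 155 symbols, and 43 members shared their symbol with another ID, so that reads of near-identical copies may be split between them. Symbols in human-style capitals also refer to zebrafish genes.

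RNA was amplified by Smart-seq2, a full-length method for small numbers of cells, from 12 tubes of 3 DsRed-positive cells each, picked from dissociated brains of about 10 embryos at 3 dpf (days post fertilisation). All fish carried Tg(mpeg1:DsRedx), in which the mpeg1 promoter drives the red reporter in macrophages and microglia. The groups were DMut, mafba mutants, mafbb mutants and siblings, with 3 tubes in each. The labels do not expand DMut, taken below to mean fish lacking both mafba and mafbb, 2 genes for large Maf transcription factors. The sources name no alleles, do not say which genotypes the siblings had, and do not say whether tubes of one genotype came from separate dissociations. The p-values therefore reflect differences between tubes, which may be technical.

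Solute carriers move amino acids, sugars, metals, nucleotides, ions and vitamins across the plasma membrane and the membranes of organelles. Microglia are the macrophages of the brain. They take up dying cells, break them down in lysosomes and export the products, so that lysosomal and plasma membrane exporters of amino acids, sugars and iron are part of their work. Roles of single genes given below are those known for their mammalian counterparts.

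Total counts were 10014888 to 17689266 per tube, and genes with a count were 5100 to 6141 in the mafbb tubes and 7038 to 10521 in the other 9. Levels are given in CPM, counts per 1000000 on TMM library sizes. The 15 microglia marker IDs summed to 3638 to 5153 CPM in DMut, 14473 to 66220 in mafba, 20027 to 38995 in mafbb and 41177 to 72685 in siblings. Of these, apoeb, apoc1, lgals3bp.1 and P2RY12 were at 0 in all 3 DMut tubes, so the DMut sums came from the other IDs. In the test of DMut against siblings 5 of the 15 passed, all lower. The 20 pan-myeloid IDs summed to 12157 to 14581 CPM in DMut and 8105 to 12021 CPM in siblings. The 13 epidermal and metaphocyte IDs summed to 537 to 2061 CPM in DMut, 13.0 to 1582 in mafba, 0 to 63.4 in mafbb and 11.4 to 120.1 in siblings, and cd9b was counted in DMut tubes and at 0 in the other 9. The part of these marker differences in the results below was not tested. In tubes of 3 cells, fewer cells with a transcript and less RNA per cell cannot be told apart.

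Among the members left after 5 IDs had been set aside by name, those that passed the test were amino acid transporters. The IDs set aside included called carriers of other kinds, so this does not single out amino acid transport. In DMut against siblings 2 of 167 members were called, both lower, against a background of 0.714% of the 9519 genes (0.462% lower), by edgeR's quasi-likelihood test with Benjamini-Hochberg adjustment over all of them. These were SLC43A2 and SLC7A8. At an unadjusted p under 0.05 there were 28 members (16.8%), against 12.5% of all genes. The DMut and sibling tubes did not overlap for 9 members that were higher in DMut and 26 that were lower (5.39% and 15.6%), where 9.86% and 7.33% of all genes did so. The median log2 ratio of the mean CPM, with a group at 0 set to 3 counts over its tubes, was -0.03 over the members and 0.08 over all genes. Folds given below as at least a value use this floor, a bound for counting error only and not for the spread between tubes. Per member and genotype, 39.8% of the sets of 3 tubes held a tube at 0 beside one at 10 or more counts. Over all genes tested the share was 41.5%.

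SLC43A2, also called LAT4, lets branched-chain and other large neutral amino acids pass the plasma membrane down their gradient. Its ID ENSDARG00000061120 had 43.0, 105 and 40.7 CPM in DMut, 58.4, 343 and 125 CPM in mafba, 99.6, 65.1 and 247 CPM in mafbb and 461, 737 and 454 CPM in siblings. Every sibling tube lay above each of the 9 mutant tubes, and DMut and the single mutants overlapped each other. The level in DMut was 8.76-fold lower than in siblings, a log2 fold change of -3.13 ± 0.71 (SE), with an adjusted p of 0.0138 in edgeR's test. This member also passed the test for any difference among the 4 genotypes (adjusted p = 0.0316, edgeR), the only one of 167 to do so (0.599%), against 0.84% of all genes. At an unadjusted p under 0.05 the test for any difference held 31 members, against 11.9% of all genes. The call for any difference was lost with robust=FALSE (0.299), with DESeq2 (1), and without DMut replicate 1 (0.0917), mafbb replicate 1 (0.0689), siblings replicate 1 (0.0813), siblings replicate 2 (0.408) or siblings replicate 3 (0.0879). The call against siblings was lost with the spike-ins as the scale (adjusted p = 0.214), with robust=FALSE (0.152), with DESeq2 (0.37), and without DMut replicate 1 (0.0913), DMut replicate 3 (0.061) or siblings replicate 2 (0.148).

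SLC7A8, or LAT2, is the light chain of an exchanger of neutral amino acids that pairs with the heavy chain SLC3A2. ENSDARG00000075831 had 13.8, 109 and 10.4 CPM in DMut, 317, 678 and 312 CPM in mafba, 237, 197 and 637 CPM in mafbb and 580.5, 734 and 664 CPM in siblings. The DMut tubes were all below those of the other genotypes, while the single mutants reached into the sibling range. The level in DMut was 14.9-fold lower than in siblings (log2 -3.90 ± 0.82, adjusted p = 0.0336, edgeR). Against mafba it was 9.85-fold lower (log2 -3.30 ± 0.79, adjusted p = 0.128) and against mafbb 8.06-fold lower (log2 -3.01 ± 0.78, adjusted p = 0.12), neither of which passed. Of 20 other settings, SLC7A8 passed against mafba in 6 and against mafbb in 5. The call against siblings was lost with robust=FALSE (0.0595) and without mafba replicate 1 (0.0579), mafbb replicate 1 (0.0712), mafbb replicate 2 (0.054), siblings replicate 1 (0.0794) or siblings replicate 2 (0.0642).

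**Figure D1:**
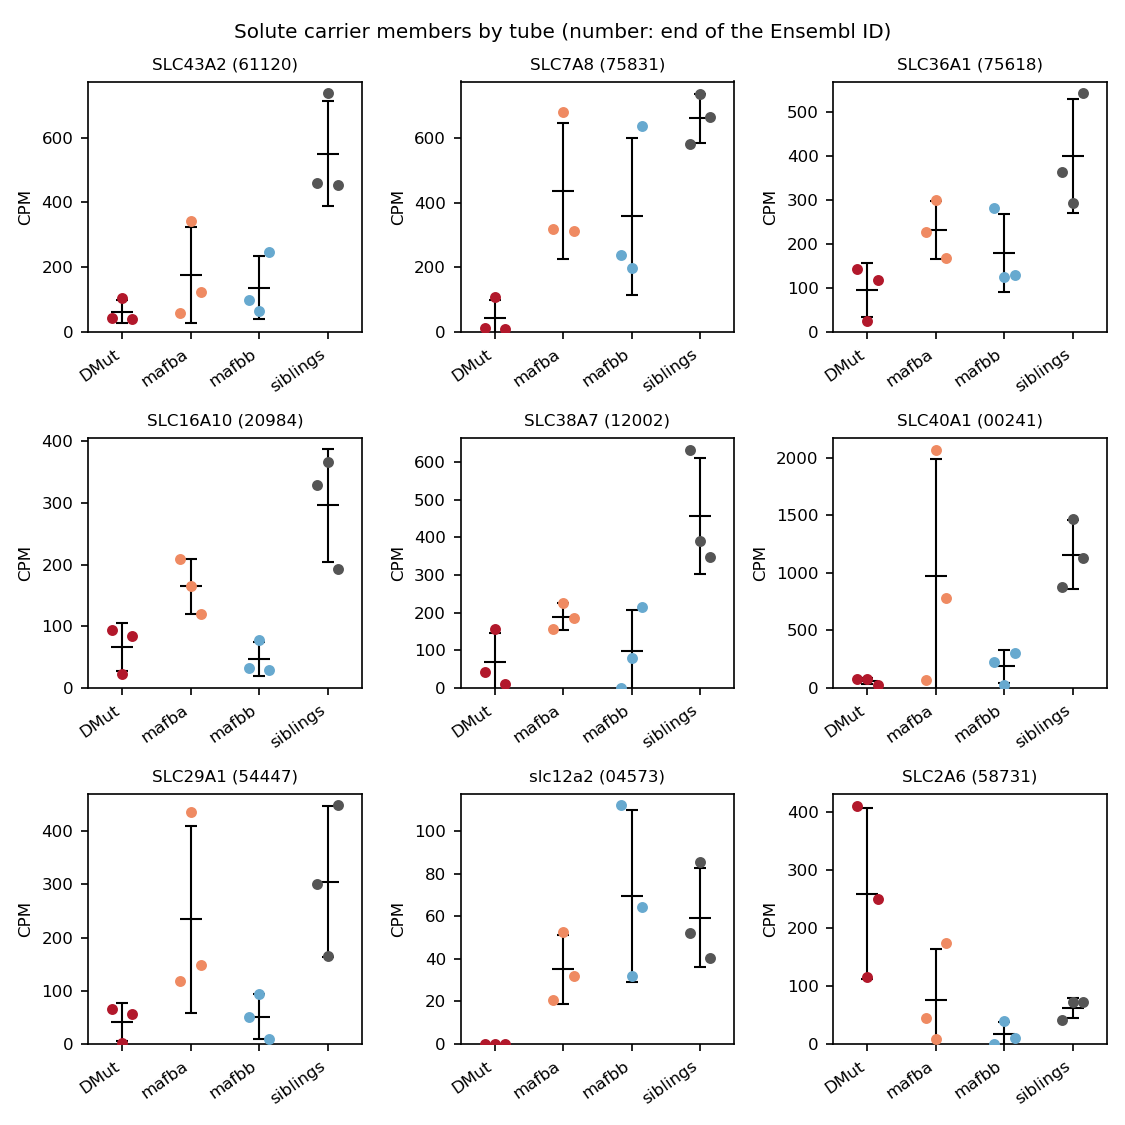
Level in CPM of 9 members in each tube, by genotype. Points are tubes, the horizontal mark is the mean of 3 tubes and the bar its SD. SLC43A2 and SLC7A8 passed the test of DMut against siblings, slc12a2 was at 0 in all 3 DMut tubes, and SLC2A6 was at 115 to 410.3 CPM in DMut, against 42.1 to 73.0 CPM in siblings.

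Other amino acid transporters whose DMut tubes all lay below siblings include proteins of lysosomes and of the plasma membrane, and none of them passed the test. SLC36A1, which carries small amino acids with protons out of lysosomes, had 142, 25.1 and 118 CPM in DMut, 226, 301 and 168 CPM in mafba, 281, 124 and 130.4 CPM in mafbb and 364, 294 and 543 CPM in siblings. DMut lay below siblings in every tube (log2 -2.08 ± 0.66, adjusted p = 0.224, edgeR). SLC16A10, the aromatic amino acid transporter TAT1, had 94.5, 22.3 and 83.6 CPM in DMut, 209, 166 and 120.2 CPM in mafba, 32.4, 78.1 and 28.7 CPM in mafbb and 328, 367 and 192 CPM in siblings. Both DMut and mafbb lay below all sibling tubes, with log2 -2.15 ± 0.86 for DMut (adjusted p = 0.393) and -2.67 ± 0.88 for mafbb (adjusted p = 0.263).

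Of the remaining amino acid members, 3 named after their values were seen had the same order of DMut and siblings. SLC38A7, a lysosomal glutamine exporter, had 42.9, 157 and 9.77 CPM in DMut, 156, 226 and 186 CPM in mafba, 0.0839, 80.0 and 215 CPM in mafbb and 633, 389.9 and 348 CPM in siblings. All 9 mutant tubes lay below the sibling range, with DMut and mafbb the most spread (DMut against siblings log2 -2.71 ± 1.71, adjusted p = 0.697, edgeR). The second SLC43A2 ID, ENSDARG00000036848, had 103, 56.2 and 119 CPM in DMut, 0.804, 353 and 181 CPM in mafba, 0, 215 and 116 CPM in mafbb and 346, 691 and 520.3 CPM in siblings, with siblings above both DMut and mafbb and an overlap with mafba (DMut against siblings adjusted p = 1). SLC66A1, a lysosomal exporter of cationic amino acids, had 4.43, 27.8 and 0.644 CPM in DMut and 81.1, 68.6 and 32.4 CPM in siblings. In all, 7 of the 29 amino acid members lay below siblings in every DMut tube and 2 above (24.1% and 6.9%), against 7.33% and 9.86% of all genes, and the median log2 ratio over the group was 0.08. The amino acid group was not alone in this. Of 19 inorganic ion members 5 lay below (26.3%) and 0 above, and of 15 nucleotide members 4 lay below (26.7%) and 0 above. Of 22 metal members 2 lay below and 3 above.

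Some amino acid members had a higher mean level in DMut than in siblings, and none of these passed the test. For slc7a11 and SLC15A4 below, the DMut and sibling tubes overlapped. SLC1A3, a glutamate and aspartate importer, also named after its values were seen, had 70.9, 146 and 138 CPM in DMut, 140.3, 68.2 and 170.2 CPM in mafba, 154, 114 and 8.56 CPM in mafbb and 0, 46.8 and 0.155 CPM in siblings. Every DMut tube exceeded the sibling tubes (log2 2.92 ± 1.66, adjusted p = 0.481, edgeR), and without siblings replicate 2 it was the only member called in this comparison. GFAP, SOX2, S100B and her4.1, markers of radial glia, were at 0 in all 12 tubes. The 14 radial glia IDs summed to 654 to 863 CPM in DMut and 4648 to 10326 CPM in siblings. Only 6 of the 14 had a count, so the sum rests on these. Whether it came from glial cells was not tested. slc38a5b, which codes for a glutamine transporter of the system N kind, had 26.3, 38.9 and 21.3 CPM in DMut, 0 in mafbb and 0, 0 and 14.4 CPM in siblings. slc7a11, the cystine and glutamate exchanger, had 34.8, 32.6 and 24.3 CPM in DMut, 0 in mafbb and 0, 0 and 43.9 CPM in siblings, where 1 tube carried all of it. SLC15A4, a lysosomal transporter of peptides and histidine, was counted in every tube, with 348, 199.9 and 185 CPM in DMut, 56.0, 122 and 99.3 CPM in mafba, 177, 310.3 and 82.9 CPM in mafbb and 314, 199 and 91.1 CPM in siblings. Only DMut and mafba did not overlap, with DMut higher, and DMut against siblings gave log2 0.28 ± 0.71 (adjusted p = 1).

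Summed over its 29 members, the amino acid group held 0.123% ± 0.0425 of all gene counts in DMut (SD, n = 3 per genotype), 0.180% ± 0.0411 in mafba, 0.174% ± 0.0308 in mafbb and 0.358% ± 0.0489 in siblings. All sibling tubes, at 0.314% to 0.411%, lay above the 9 mutant tubes, whose highest share was 0.227%. The 6 IDs of SLC43A2, SLC7A8, SLC36A1, SLC38A7 and SLC16A10 took 0.0401% ± 0.00808 in DMut, 0.129% ± 0.0441 in mafba, 0.100% ± 0.0411 in mafbb and 0.291% ± 0.0216 in siblings. The other 23 IDs took 0.0833% ± 0.0358 in DMut, 0.0510% ± 0.00511 in mafba, 0.0736% ± 0.0491 in mafbb and 0.0662% ± 0.0292 in siblings, which overlapped in every pair of genotypes except DMut and mafba, where DMut was higher. The 6 were chosen for their levels, so these shares describe where the difference lay and carry no test.

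**Figure D2:**
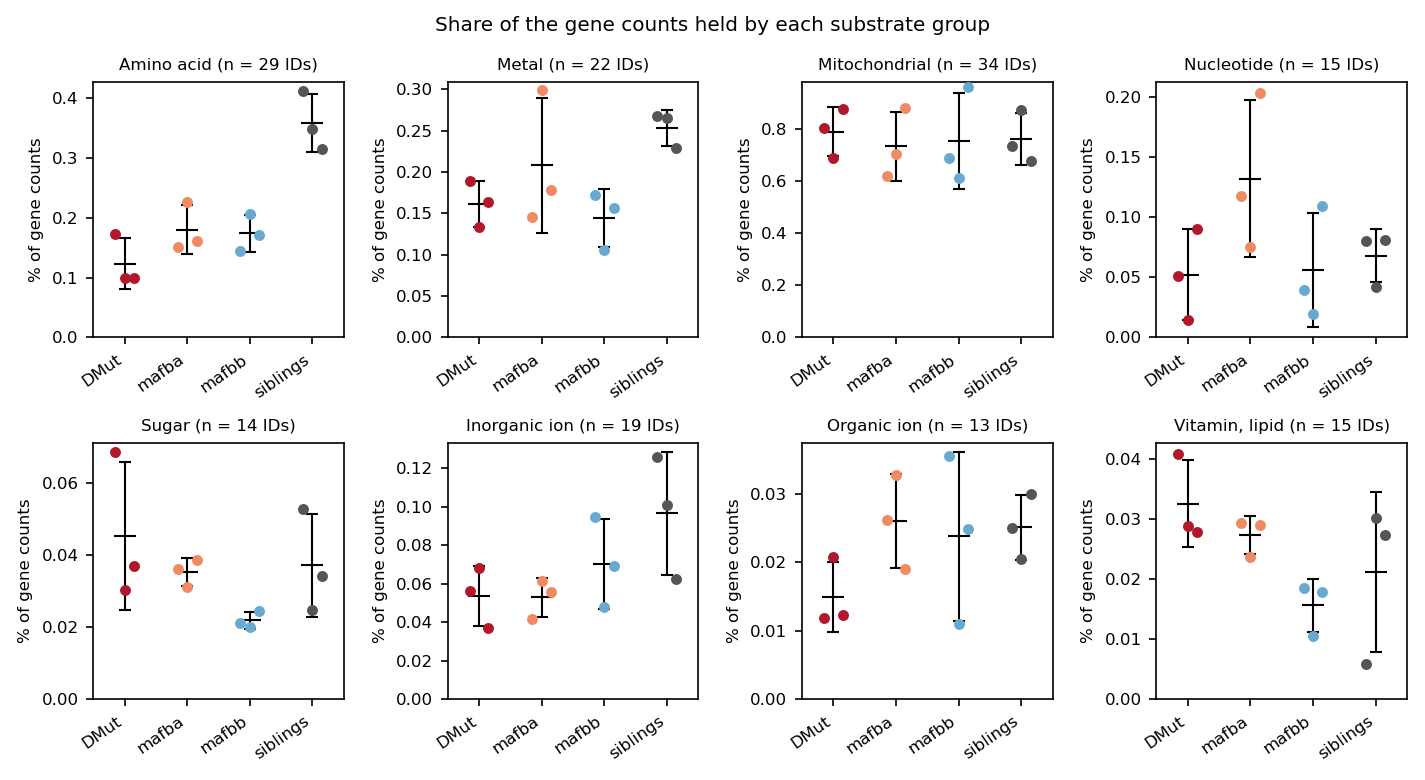
Share of the gene counts, in percent, held by the members of 8 substrate groups in each tube, by genotype. Points are tubes, the horizontal mark is the mean and the bar the SD of 3 tubes. Amino acid transporters were at 0.314% to 0.411% in siblings and at most 0.227% in the mutant tubes, and mitochondrial carriers overlapped between all genotypes.

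Of 36 tested partners of these transporters, chosen as subunits, lysosomal neighbours, nutrient sensors and mitochondrial import genes, 1 was called in DMut against siblings, where 0.714% of all genes were. This was NPC2 (ENSDARG00000090912), the lysosomal cholesterol carrier, with 816, 1040.4 and 583 CPM in DMut, 1984, 4257 and 1897 CPM in mafba, 1287, 2038 and 3628 CPM in mafbb and 4713, 3381 and 4184 CPM in siblings. NPC2 fell by 2.33 ± 0.37 on the log2 scale against siblings (adjusted p = 0.00222, edgeR) and by 1.74 ± 0.36 against mafba (adjusted p = 0.0356), and its DMut tubes were below all others. NPC1, its membrane partner, had 37.0, 73.9 and 79.5 CPM in DMut and 203, 163 and 236 CPM in siblings (adjusted p = 0.395). CLCN7, the lysosomal chloride and proton exchanger, had 177, 235 and 260.5 CPM in DMut and 49.7, 47.3 and 14.8 CPM in siblings (adjusted p = 0.393), with DMut above siblings. MITF, a regulator of lysosome genes, had 22.9, 53.9 and 174 CPM in DMut at ENSDARG00000003732 and 0 in siblings (adjusted p = 0.363).

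Metal transporters included the iron exporter SLC40A1, or ferroportin, through which macrophages release iron. It had 82.3, 73.8 and 29.1 CPM in DMut, 67.8, 2068 and 779.9 CPM in mafba, 228, 26.9 and 306 CPM in mafbb and 877, 1471 and 1124 CPM in siblings. DMut and mafbb lay below all sibling tubes, and mafba overlapped every other genotype. The level in DMut was 18.8-fold lower than in siblings (log2 -4.23 ± 1.28), which did not pass with an adjusted p of 0.393 in edgeR's test. No metal transporter passed edgeR's test in any comparison in the main setting. With other settings some did. DESeq2 called SLC39A10 and slc30a6 in DMut against siblings, and spike-in scaling called SLC30A1 in DMut against mafbb. DESeq2 also called slc30a6, SLC39A8 and SLC39A14 in mafbb against siblings, and SLC39A8 and SLC39A10 in DMut against mafbb. In the interaction, defined below, it called SLC39A8. The 22 metal members took 0.162% ± 0.0277 in DMut and 0.254% ± 0.0216 in siblings, and the 21 without SLC40A1 took 0.156% ± 0.0266 in DMut and 0.138% ± 0.0254 in siblings.

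Iron handling around SLC40A1 was read from a list of 20 tested genes of iron, zinc and redox balance, none of which was called in any comparison. The ferritin subunit fthl27, which stores iron, had 7391, 10819.5 and 9682 CPM in DMut and 1973, 4944 and 3439 CPM in siblings (log2 1.43 ± 0.45, adjusted p = 0.393, edgeR), with no overlap. HMOX1, which frees iron from heme, had 79.2, 0.354 and 19.4 CPM in DMut and 758, 226 and 569.8 CPM in siblings (adjusted p = 0.516), again with no overlap and in the other direction.

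The steadiest metal values came from a few zinc and copper transporters, whereas others for these metals were at 0 in some tubes. SLC30A1, which exports zinc from the cytosol, had 709, 613 and 1289.8 CPM in DMut, 577, 526 and 471 CPM in mafba, 473, 385 and 669 CPM in mafbb and 499, 984 and 618 CPM in siblings. The genotypes overlapped, except that DMut lay above mafba in every tube (log2 0.73 ± 0.39, adjusted p = 0.633, edgeR). SLC31A1, the copper importer, ranged from 61.2 to 294.3 CPM and SLC39A7, a zinc transporter of the secretory pathway, from 48.5 to 305 CPM over the 12 tubes. SLC39A10, a zinc importer, had 19.8, 81.7 and 11.3 CPM in DMut, 6.43, 0 and 0 CPM in mafba and 0 in mafbb and siblings (DMut against siblings at least 469.5-fold higher, adjusted p = 0.393). The iron and manganese transporter slc11a2, named after its values were seen, had 48.9, 33.0 and 22.1 CPM in DMut and 71.3, 34.4 and 76.3 CPM in siblings, which overlapped.

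Mitochondrial carriers were the largest group, with 34 members, and 0 of them were called in any comparison by edgeR in the main setting. In DMut against siblings 1 (2.94%) had an unadjusted p under 0.05, against 12.5% of all genes. The group held 0.791% ± 0.0949 of all gene counts in DMut, 0.736% ± 0.133 in mafba, 0.755% ± 0.185 in mafbb and 0.763% ± 0.0999 in siblings. SLC25A5, an adenine nucleotide carrier that exchanges ADP and ATP, made up 72.7% of it. SLC25A5 had 4899, 6321 and 8611 CPM in DMut, 4066, 5750.2 and 7118 CPM in mafba, 4508, 3662 and 6523 CPM in mafbb and 4232, 7201 and 5074 CPM in siblings, a spread of 2.35-fold between the lowest and highest tube. Without it the group took 0.194% ± 0.0652 in DMut and 0.214% ± 0.0366 in siblings.

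SLC25A3, the phosphate carrier of the inner membrane, was the steadiest of the 19 members with 10 or more counts in all 12 tubes. It had 913, 903 and 849 CPM in DMut, 726, 993 and 1081 CPM in mafba, 928, 730.4 and 1250.1 CPM in mafbb and 684, 824 and 924 CPM in siblings, and its highest tube was 1.83-fold above its lowest. The log2 difference between DMut and siblings was 0.13 ± 0.33 (adjusted p = 1, edgeR). Such spreads were wider for most members. Over the 19, the median ratio of highest to lowest tube was 13.0, against 6.75 over the 1468 genes with the same counts. The carnitine carrier SLC25A20 had 54.2, 58.6 and 30.5 CPM in DMut, 149.9, 81.4 and 139 CPM in mafba, 70.4, 125 and 115 CPM in mafbb and 72.5, 71.4 and 61.0 CPM in siblings, with DMut below the rest. The mitochondrial iron importers SLC25A37 and SLC25A28 were at 0 in mafbb, and SLC25A37 had 80.9, 10.7 and 18.6 CPM in DMut and 0.948, 5.29 and 4.43 CPM in siblings, above siblings in every DMut tube. SLC25A28 had 56.7, 24.5 and 17.2 CPM in DMut and 0, 17.2 and 20.7 CPM in siblings, which overlapped.

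Nucleotide and nucleoside transporters had 15 members, none called by edgeR in the main setting. SLC29A1, the equilibrative nucleoside transporter ENT1, had 66.4, 1.18 and 56.0 CPM in DMut, 118, 436 and 148 CPM in mafba, 51.3, 94.9 and 8.79 CPM in mafbb and 301, 165 and 449 CPM in siblings. DMut and mafbb lay below all sibling tubes, with log2 -2.89 ± 1.01 for DMut (adjusted p = 0.389, edgeR) and -2.56 ± 0.99 for mafbb (adjusted p = 0.263). SLC43A3, a carrier of purine nucleobases, had 111, 76.1 and 749 CPM in DMut, 673, 174 and 1716 CPM in mafba, 0.252, 2.16 and 864 CPM in mafbb and 0.135, 50.9 and 107 CPM in siblings. The tubes of a genotype spread widely, and mafba lay above siblings in every tube. SLC35B3, which brings the sulfate donor into the Golgi, was at 0 in all DMut tubes and at 41.7, 21.2 and 45.1 CPM in siblings. It was at least 365-fold lower in DMut (adjusted p = 0.393, edgeR), a difference that DESeq2 called. SLC35B2, of the same substrate, had 32.2, 51.6 and 24.1 CPM in DMut, 0 in mafbb and 27.7, 16.1 and 23.9 CPM in siblings.

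Sugar transporters had 14 members and none was called by edgeR in the main setting. SLC2A6, a hexose transporter of lysosomal membranes in macrophages, had 410.3, 115 and 251 CPM in DMut, 45.1, 8.13 and 175 CPM in mafba, 0.168, 40.3 and 10.5 CPM in mafbb and 42.1, 73.0 and 71.6 CPM in siblings. Every DMut tube was above every sibling and mafbb tube, and mafba overlapped DMut. The log2 difference was 2.06 ± 1.22 against siblings (adjusted p = 0.516, edgeR) and 3.93 ± 1.32 against mafbb (adjusted p = 0.213). SLC45A3 was counted in siblings, at 51.3, 22.6 and 8.62 CPM, and at 0 in DMut and mafbb. It was at least 279-fold lower in DMut than in siblings (adjusted p = 0.393, edgeR), which DESeq2 called. SLC2A12, a glucose transporter, was at 0 in siblings and had 24.7, 0 and 9.66 CPM in DMut, 86.8, 6.85 and 31.6 CPM in mafba and 43.1, 0.0744 and 0 CPM in mafbb. The inositol transporter SLC2A13 had 0.949, 44.9 and 0 CPM in DMut, 65.8, 48.3 and 71.3 CPM in mafba, 0 in mafbb and 1.08, 0 and 25.2 CPM in siblings, highest in all 3 mafba tubes.

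Among 19 transporters of inorganic ions, slc12a2 came nearest to the threshold. It codes for the sodium, potassium and chloride cotransporter NKCC1, which sets chloride and cell volume. It had 0, 0 and 0 CPM in DMut, 20.5, 52.7 and 32.0 CPM in mafba, 112, 31.9 and 64.5 CPM in mafbb and 52.2, 85.5 and 40.5 CPM in siblings. All DMut tubes were at 0, and every other tube had counts. Against siblings the level was at least 603-fold lower (adjusted p = 0.0752, edgeR) and against mafbb at least 705-fold lower (adjusted p = 0.0625). It passed against siblings without the filter, with robust=FALSE, with DESeq2, and without mafbb replicate 2 or mafbb replicate 3. The phosphate importer SLC20A1 had 189.7, 196 and 155 CPM in DMut, 154, 119.7 and 164 CPM in mafba, 246, 58.0 and 423 CPM in mafbb and 363, 524 and 223 CPM in siblings, where siblings exceeded DMut in every tube (log2 -1.04 ± 0.63, adjusted p = 0.535). SLC9A8, a sodium and proton exchanger of endosomes and Golgi, was at 0 in mafbb and had 52.8, 30.3 and 24.3 CPM in DMut, 28.5, 10.2 and 18.5 CPM in mafba and 60.7, 34.5 and 29.1 CPM in siblings.

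The 13 organic ion transporters held the one member that reached 10 counts in a single genotype. This was slc13a5b, a citrate transporter gene, with 26.5, 67.3 and 14.0 CPM in DMut and 0 in the other 9 tubes. Its level was at least 448-fold higher than in siblings. The minimum of the rule selects for such a pattern, so it is a description, and no test of slc13a5b is read as a result. Of the vitamin and lipid group, SLC49A4, a transporter of the lysosomal membrane, had 171, 8.25 and 110.4 CPM in DMut, 90.2, 40.9 and 34.2 CPM in mafba, 0, 0 and 0 CPM in mafbb and 0.0677, 43.9 and 18.3 CPM in siblings. It was at least 1373-fold higher in DMut than in mafbb (adjusted p = 0.0548), and DMut overlapped siblings. SLC46A1, the proton-coupled folate transporter, had 8.22, 52.6 and 9.98 CPM in DMut, 0.107, 4.57 and 0 CPM in mafba and 0 in mafbb and siblings. Over the 15 members of that group the median log2 ratio of DMut to siblings was 1.76, against 0.08 over all genes. Of the members 11 lay above 0 and 4 below, but several rest on bounds from tubes at 0. Of all genes 4929 lay above 0 and 4536 below.

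**Figure D3:**
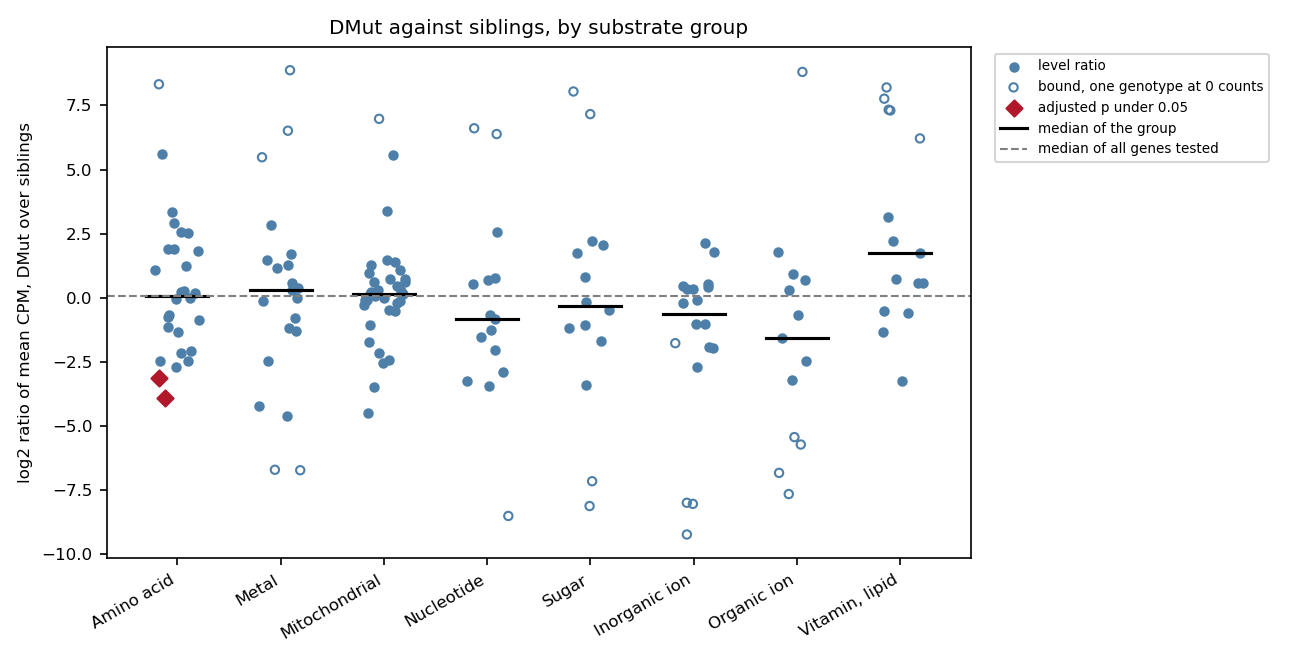
Log2 ratio of mean CPM, DMut over siblings, for members of 8 substrate groups, leaving out those at 0 in both genotypes. Filled points are ratios, open points are bounds with the genotype at 0 set to 3 counts, diamonds passed the test, bars are group medians and the dashed line is the median of all 9519 genes at 0.08. The amino acid median was 0.08 with both called members at its low end, and the vitamin and lipid median 1.76.

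Single mutants against siblings gave 0 called members of 167. In mafba, 12 members had an unadjusted p under 0.05 in edgeR's test, while 0% of all genes passed edgeR's threshold and 7.82% the unadjusted one. DESeq2 called 8 of the 152 members it gave an adjusted p (5.26%), against 6.42% of all such genes. The mafba tubes did not overlap siblings for 9 members that were higher and 10 that were lower, against 5.61% and 3.7% of all genes. In mafbb, 41 members (24.6%) had an unadjusted p under 0.05, 35 of them lower. DESeq2 called 38 of 152 members (25%), against 18.4% of all genes with an adjusted p. Of all genes 0.0735% passed edgeR's threshold and 18.6% the unadjusted one, 14.4% lower. Tubes did not overlap for 1 member higher in mafbb and 23 lower, against 2.52% and 9.05% of all genes. The median log2 ratio of mafbb to siblings was -0.87 over the members and -0.30 over all genes. SLC43A2 (ENSDARG00000061120) was lower than in all sibling tubes in both single mutants, with log2 -1.65 ± 0.67 for mafba (adjusted p = 0.608, edgeR) and -2.00 ± 0.67 for mafbb (adjusted p = 0.263). SLC7A8 overlapped siblings in both, at log2 -0.60 ± 0.73 for mafba (adjusted p = 1) and -0.89 ± 0.73 for mafbb (adjusted p = 0.709).

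Between mutants there was again no call. DMut against mafba gave 0 members (background 0.399%), with 17 at an unadjusted p under 0.05 in edgeR's test (8.03% of all genes) and 9 called by DESeq2 (5.92% of members, 5.33% of all genes with an adjusted p). Here 16 members had DMut tubes all higher and 13 all lower, against 7.39% and 7.11% of all genes. DMut against mafbb gave 0 (background 0.725%), with 49 unadjusted (20.6% of all genes) and 41 called by DESeq2 (27% of members, 18.7% of genes). DMut tubes were all higher for 23 members and all lower for 6, against 13.5% and 3.68% of all genes. mafba against mafbb gave 0 (background 0.042%), with 30 unadjusted (17.1% of all genes) and 31 called by DESeq2 (20.4% of members, 16.5% of genes). mafba tubes were all higher for 19 members and all lower for 1, against 10.2% and 2.07% of all genes. SLC7A6, a light chain for cationic and neutral amino acids, had 0.791, 3.30 and 9.55 CPM in DMut, 0, 0 and 0 CPM in mafba, 61.9, 61.6 and 21.4 CPM in mafbb and 0, 11.6 and 0 CPM in siblings, highest in every mafbb tube and at 0 in mafba (mafba against mafbb adjusted p = 0.285, edgeR). The interaction, meaning how far the log2 difference of DMut departed from the sum of both single-mutant differences, passed for 0 members in edgeR's test (background 0.21%). At an unadjusted p under 0.05 there were 36 members, against 13% of all genes, and DESeq2 called 30 (19.7% of members, 14.1% of genes). The smallest p in edgeR's test belonged to slc12a2 (adjusted p = 0.259). These comparisons share tubes, and the counts of one are not independent of those of another.

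Fewer members were counted in the mafbb tubes, which also had the fewest genes counted and the largest share of spike-in counts, 0.662% to 0.798% against 0.0946% to 0.452% in the other 9 tubes. The part of this in the mafbb results was not tested. Members with a count were 117 to 141 per tube in DMut, 91 to 150 in mafba, 81 to 89 in mafbb and 103 to 124 in siblings. In the mafbb tubes this was 48.5% to 53.3% of members, against 49.0% to 56.5% of all genes tested. In all 3 mafbb tubes 52 members were at 0 (31.1%, against 23.9% of genes tested), 35 of them in no other genotype. Of the 9519 genes tested, 1513 were at 0 in mafbb and in no other genotype. In DMut 17 members were at 0 in all 3 tubes (10.2%, against 6.38% of genes tested), in mafba 8 (4.79%, against 3.87%) and in siblings 18 (10.8%, against 10.2%). Only 31 members (18.6%) had a count in all 12 tubes, as did 20.8% of the genes tested.

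**Figure D4:**
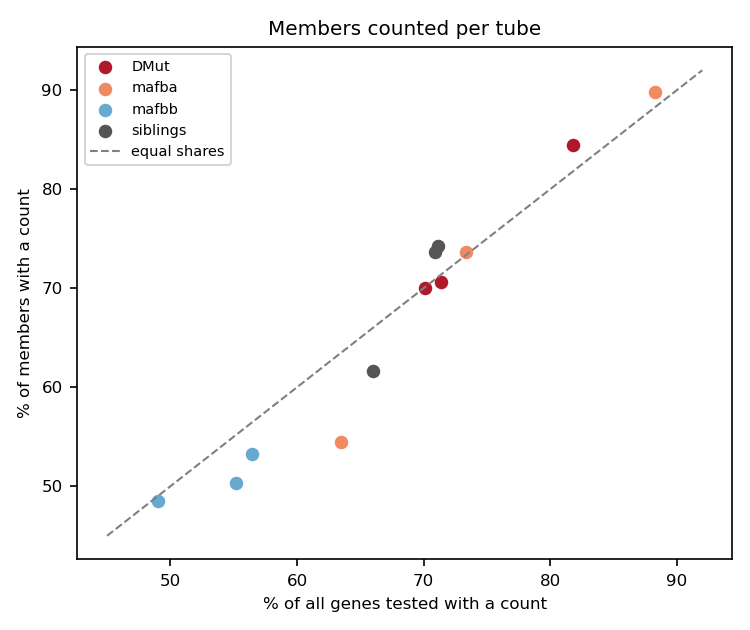
Percent of the 167 members with a count in each tube (vertical) against the percent of all 9519 genes tested with a count in the same tube (horizontal), 12 points coloured by genotype with a dashed line of equal shares. The 3 mafbb tubes are lowest on both axes, with 48.5% to 53.3% of members counted.

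Members at 0 in at least 1 genotype and with 10 or more counts in all 3 tubes of another numbered 33. No matching total was taken over all genes tested, so nothing is read from this number. Shares of all genes are given below for single pairs of genotypes. With mafbb at 0 and all DMut tubes counted there were 18 (10.8% of members, 5.29% of genes tested), and with mafbb at 0 and all sibling tubes counted 10 (5.99% and 2.93%). With DMut at 0 and all sibling tubes counted there were 5 (2.99% and 0.998%), namely slc12a2, SLC24A3, SLC35B3, SLC39A14 and SLC45A3. With siblings at 0 and all DMut tubes counted there were 4 (2.4% and 2.31%), namely slc13a5b, SLC39A10, SLC46A1 and slc30a6. This share was close to that of all genes. The epidermal and metaphocyte marker cd9b, with 25.9, 17.6 and 20.8 CPM in DMut and 0 elsewhere, shared this pattern with slc13a5b. It is 1 of 13 IDs of its list, whose sum was not confined to DMut and reached 1582 CPM in mafba. A link between cd9b and slc13a5b was not tested.

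**Figure D5:**
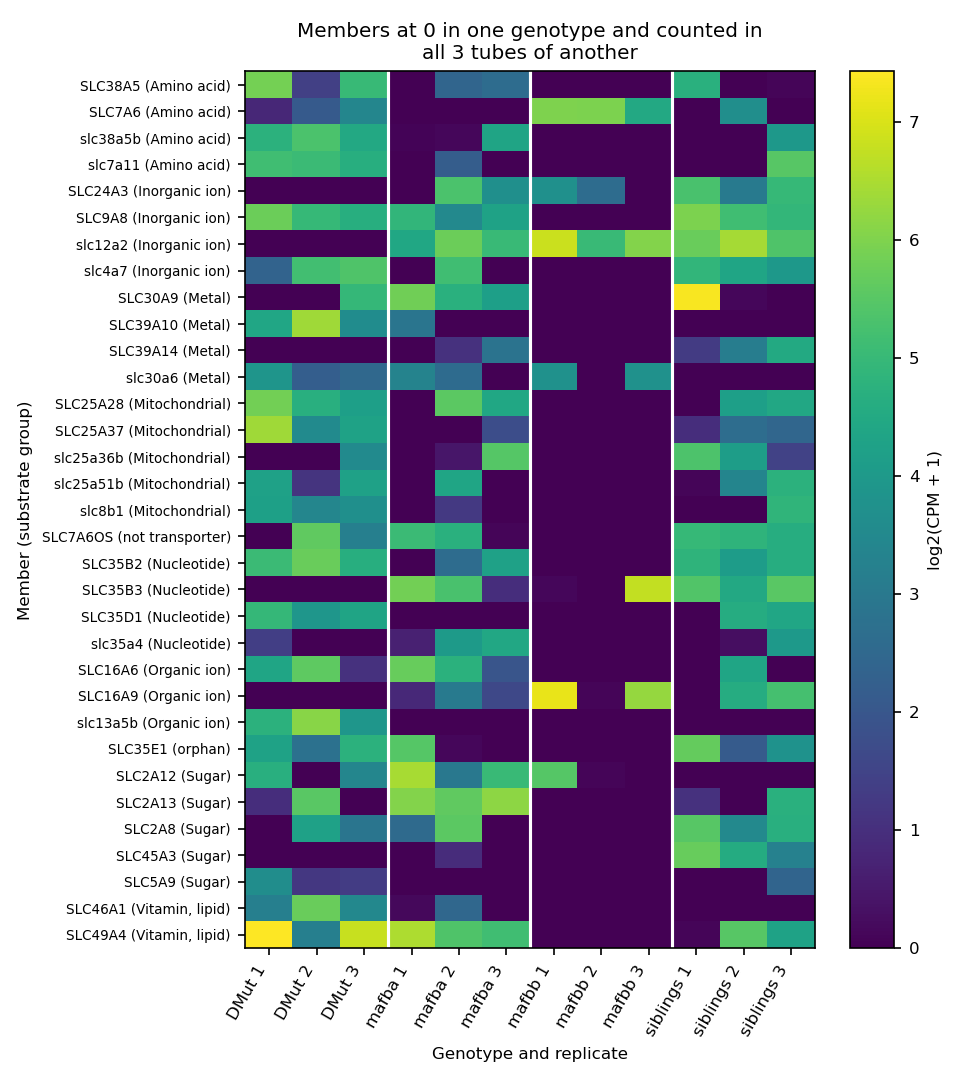
log2(CPM + 1) of the 33 members that were at 0 in all tubes of at least 1 genotype and had 10 or more counts in all 3 tubes of another, with tubes as columns and members as rows. Dark cells are at 0 or near it, and most dark blocks of 3 tubes fall in mafbb. slc12a2 was at 0 in DMut and counted in every other tube, and slc13a5b was counted in DMut alone. SLC24A3, SLC35B3 and an SLC16A9 ID were also at 0 in DMut and in no other genotype.

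IDs that share a symbol did not always follow each other. Of 12 symbols held by 2 member IDs, SLC16A9, a carnitine efflux transporter, had an ID at 0 in DMut and another at 0 in mafbb. Their sibling tubes overlapped, and neither passed the test for any difference among genotypes (adjusted p = 0.404 for each, edgeR). ENSDARG00000013926 had 0 in DMut, 144, 0.0744 and 75.2 CPM in mafbb and 0, 23.2 and 36.5 CPM in siblings, whereas ENSDARG00000104687 had 0, 68.1 and 58.0 CPM in DMut, 0 in mafbb and 44.2, 0 and 33.0 CPM in siblings. Both SLC43A2 IDs had similar means in siblings, 551 ± 162 CPM and 519 ± 173 CPM, and for both the DMut tubes lay below all sibling tubes. The next IDs were named after their values were seen. The second SLC29A1 ID, ENSDARG00000101289, was at 0 in mafbb and siblings. SLC25A32 (ENSDARG00000089791) had 4.19, 0 and 6.12 CPM in DMut and 95.4, 95.9 and 38.4 CPM in siblings, and its second ID had 36.9, 9.55 and 8.69 CPM in DMut and 19.8, 0 and 0 CPM in siblings.

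Near the minimum of the rule, the 19 members that reached 10 counts in exactly 3 tubes had a third-highest count of 10 to 240 (median 53), and the 28 IDs that reached it in exactly 2 tubes had a third-highest count of at most 8.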

How the data were processed

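Counts per gene were deposited by the authors as a raw table, whole numbers without normalization, per the file headers. The submitters' processing notes name Trim Galore, STAR and the build GRCz11, also called danRer11. No source names the versions, counting tool, annotation release, strand setting or gene lengths, so levels were not compared between genes. Symbols were matched to Ensembl IDs by a reference table. The 92 spike-ins stayed out of the tests. The check of the targeted genes is not reported here.

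edgeR 4.0.16 in R 4.3.3 kept 9519 genes with filterByExpr (minimum count 10, minimum total 15), scaled by TMM and fitted 1 quasi-likelihood model with robust=TRUE to all 12 tubes. The common dispersion was 4.00. A gene was called at a Benjamini-Hochberg adjusted p under 0.05. A group at 0 was given a floor of 3 counts over its tubes for folds, which covers counting error only, as the reads carried no molecular identifiers. Fold changes in log2 come from the model. Their SE is the size of the log2 fold change divided by the square root of the test's F statistic. It restates the test and is no separate measure of spread. Members named were drawn from a list set by rule, and not every member of that list is named. The list held those called, up to 5 more with the smallest p per comparison, and the 4 per substrate group with the highest minimum CPM. It also held those at 0 in one genotype and counted in all tubes of another. Members outside the list are said to have been named after their values were seen. Substrate groups follow textbook families, except that slc4a1ap was set apart as no transporter after the data were seen. The members and lists were chosen with earlier results of these data known. Alternatives were DESeq2 1.42.0 and its size factors, library size alone, spike-in scaling and no filter. Others were a filter of 10 counts in 3 tubes, robust=FALSE and a replicate block. Each tube was left out in turn, and mafba replicate 2 and mafbb replicate 3 were also left out together.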

Additional observations from a re-analysis of the deposited data

How the results depend on the processing

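Of the 8 comparisons, the count of called members kept within 1.5 times its main value in 120 of 168 repeats. Most comparisons had 0 calls in the main setting, and 0 staying at 0 was counted as kept. The total therefore says little about the comparisons with calls. No log2 fold change of a member named by the rule changed sign, where the comparison gave one. The called members were not always the same ones. DMut against siblings had 2 calls, SLC43A2 and SLC7A8. It had 1 with spike-in scaling (SLC7A8), 1 with robust=FALSE (slc12a2) and 3 without the filter (SLC43A2, SLC7A8 and slc12a2). These settings called 0.494%, 0.378% and 0.715% of all genes. DESeq2 gave 16, 8 in each direction with neither SLC43A2 nor SLC7A8 among them (10.5% of members, against 9.56% of all genes with an adjusted p). Among the 16 were slc12a2, slc13a5b, SLC35B3, SLC39A10 and SLC45A3. Of these, slc13a5b met the minimum of the rule through DMut alone, so its call is not read as a result. With a tube left out there were 1 to 3 (0.462% to 0.903% of all genes), and without siblings replicate 2 the 1 call was SLC1A3, higher in DMut. For any difference among genotypes there was 1 call, and 2 with library size alone (0.777% of all genes). Spike-ins gave 6 (3.59% of members, 2.68% of all genes) and no filter 2 (1.2% and 1.13%). There were 0 with robust=FALSE (0.494% of all genes) and 0 with DESeq2, which called 0% of all genes. With a tube left out there were 0 to 2 (0.578% to 0.903% of all genes). From 0 calls, DMut against mafba gave 1 with library size alone, 1 with spike-ins and 1 without the filter (0.441%, 0.336% and 0.479% of all genes). It gave 9 with DESeq2 (5.33%) and 0 to 1 with a tube left out (0.242% to 0.431%). DMut against mafbb gave 1 with library size alone (0.819% of all genes) and 6 with spike-ins (3.59% of members, 3.84% of all genes). It gave 3 without the filter (1.8% and 0.833%), 1 with robust=FALSE (0.599% and 0.452%) and 41 with DESeq2 (27% and 18.7%). With a tube left out it gave 0 to 2 (0.546% to 0.914% of all genes). mafba against mafbb gave 4 with spike-ins (2.4% of members, 2.77% of all genes) and 31 with DESeq2 (20.4% and 16.5%). mafba against siblings gave 8 with DESeq2 (5.26% and 6.42%). mafbb against siblings gave 1 with spike-ins (0.599% and 0.735%) and 38 with DESeq2 (25% and 18.4%). Each of these 3 comparisons gave 0 with any tube left out. The interaction gave 1 with spike-ins (0.599% of members, 0.63% of all genes) and 30 with DESeq2 (19.7% and 14.1%). With a tube left out it gave 0 to 1 (0.116% to 0.41% of all genes). The cause of these moves was not tested. Spike-in scaling moved the median log2 fold change of all genes in mafbb against siblings to -1.58, against -0.20 with TMM, and in DMut against siblings to 0.47, against 0.07.

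Deviations of same-numbered tubes of different genotypes correlated at -0.0262 to 0.0356, and those of other pairs at -0.0304 to 0.0303. The highest of all, 0.0356, was between siblings replicate 2 and DMut replicate 2. Counting only tubes that correlated best with their own number in every other genotype, there were 0. As every correlation lay near 0, this check cannot tell whether same-numbered tubes were prepared together. With the replicate block, calls were 2 in DMut against siblings, 2 for any difference, and 1 each in DMut against mafba, DMut against mafbb and the interaction. Of all genes the block called 1.29%, 1.64%, 0.798%, 1.31% and 0.504% in these comparisons. DESeq2 gave no adjusted p to SLC7A8 in any comparison.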
